A study of Mus musculus with 20 samples.

Results

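The 9 genes described here encode enzymes and scaffold proteins of glycogen synthesis and breakdown: Ugp2, Gyg, Gys1, Gbe1, Pygm, Pygb, Phka1, Ppp1r3c and Stbd1. They were taken by gene name from the deposited table of 29339 genes, and all 9 were found once. In every one of the 20 heart libraries each of them had more than 80 counts, the lowest being 82 counts for Stbd1. The members were chosen with earlier results on these libraries known, among them a lower level of glycogen genes in the male-labelled KO hearts. The differences between KO and WT below are therefore selected values, given as a description. Counts of members past a threshold stand beside the share of all genes past it and are not evidence about the members.

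RNA was sequenced from heart tissue of mice aged 8 weeks. The labels divide the 20 libraries into male WT (n = 5), male Tecrl-/- (KO, n = 5), female WT (n = 3) and female KO (n = 7). The WT mice were C57BL/6, the only strain named, and the KO mice are labelled Tecrl-/-, lacking both copies of an endoplasmic reticulum gene tied to inherited ventricular arrhythmia. The methods describe 1 library for each mouse and 3 mice in a group, so the 20 deposited libraries outnumber the animals described. The sources name no Cre or cell type for the knockout.

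Several libraries stood apart before any result. Tecrl RNA was not lost in the libraries labelled KO, where each had at least 835 counts beside 768 or more in those labelled WT. KO and WT below are therefore names of labels. In 6 libraries the sex-linked genes went against the label. S7, S8 and S9, labelled male WT, had Xist without Y-linked reads. S4, S5 and S6, labelled female KO, had Y-linked reads and only 4, 1 and 3 counts of Xist. Whether the genotype labels of these 6 libraries hold was not tested. Library names form 2 series, S (n = 12) and WT/TKO (n = 8), and all 3 female WT libraries are S-named. Libraries held between 12540002 and 20038593 counts, with a mitochondrial share of 15.3% to 30.4%. The 8 ventricular cardiomyocyte markers summed to between 39045 and 60227 CPM (counts scaled to a common library total), and the skeletal muscle markers to no more than 14.5 CPM, with Myh1, Myh2 and Myod1 at 3 counts or fewer in every library and Myh4, Tnnt3, Actn3 and Mylpf reaching 97, 66, 55 and 48 counts. Atrial markers summed to over 1000 CPM in S7, S9, S11 and S12.

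Heart muscle keeps a small glycogen store that feeds glycolysis when work rises or oxygen falls. The store is built in order: UDP-glucose is made from glucose 1-phosphate, glycogenin starts the chain, glycogen synthase lengthens it and the branching enzyme adds branch points. Breakdown runs through glycogen phosphorylase, which phosphorylase kinase switches on, while protein phosphatase 1 held on the particle by targeting subunits turns synthase on and phosphorylase off.

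The promoter windows of Gyg and Ppp1r3c are shown because they alone among the 9 genes held the letters CACGTG, a palindromic motif bound by several basic helix-loop-helix factors. The windows hold 300 bases around the RefSeq gene start in GRCm38.p6, read on the gene's strand 5′ to 3′, with the motif in capitals. Gyg lies at chr3:20155067-20155366 (minus strand) with the motif from base 259 of the window, and Ppp1r3c at chr19:36736555-36736854 (minus strand) with the motif from base 147.
Gyg: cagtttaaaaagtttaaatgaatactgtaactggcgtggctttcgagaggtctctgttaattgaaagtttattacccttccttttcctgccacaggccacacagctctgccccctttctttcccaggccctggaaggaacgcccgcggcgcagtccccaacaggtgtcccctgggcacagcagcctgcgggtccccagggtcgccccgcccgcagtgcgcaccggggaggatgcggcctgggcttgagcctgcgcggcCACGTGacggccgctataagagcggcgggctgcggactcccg
Ppp1r3c: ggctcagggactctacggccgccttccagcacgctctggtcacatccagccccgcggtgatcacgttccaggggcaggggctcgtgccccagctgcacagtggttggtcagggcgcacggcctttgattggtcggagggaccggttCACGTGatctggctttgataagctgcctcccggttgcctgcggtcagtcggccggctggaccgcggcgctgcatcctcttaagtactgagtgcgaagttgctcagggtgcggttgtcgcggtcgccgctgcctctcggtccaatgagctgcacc

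Of 32851 promoter windows of this length, 7.15% held CACGTG, and 2 of the 10 windows of the members did (Ugp2 has 2 windows). None of the 10 held AAGGTCA, TGACGTCA or the MEF2 motif on either strand, which 4.72%, 1.79% and 3.19% of all windows held. A match of letters is a description of the window, and binding was not measured.

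Levels of different genes were compared as FPKM, the deposited value scaled to gene length and library total. Pygm, the muscle form of glycogen phosphorylase, stood highest at 233 ± 45.6 FPKM (SD, n = 20). Pygb, the brain form of the same enzyme, came next at 119 ± 43.0 FPKM. Both phosphorylases were thus above every gene of the synthesis arm on average, and Pygm exceeded Pygb in 20 of 20 libraries.

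Within the synthesis arm, Ugp2, which makes UDP-glucose, was at 75.7 ± 24.5 FPKM and Gyg, the glycogenin primer, at 58.1 ± 5.08 FPKM. Gys1, the muscle glycogen synthase, was at 21.7 ± 6.31 FPKM and Gbe1, the branching enzyme, at 8.15 ± 2.62 FPKM. The RNA of the branching enzyme was the lowest of the 4 synthesis genes. Ppp1r3c, which targets protein phosphatase 1 to glycogen, was at 41.7 ± 14.9 FPKM. Phka1, the muscle alpha subunit of phosphorylase kinase, was at 13.7 ± 3.61 FPKM, and Stbd1, a starch-binding protein linked to lysosomal handling of glycogen, was lowest at 4.70 ± 1.94 FPKM.

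Neighbours in this order were not separated in every library. Pygb exceeded Ugp2 in 18 of 20 libraries, Ugp2 exceeded Gyg in 16, Gyg exceeded Ppp1r3c in 17 and Ppp1r3c exceeded Gys1 in 19. Gys1 exceeded Phka1 in 17, Phka1 exceeded Gbe1 in 19 and Gbe1 exceeded Stbd1 in 19 of 20 libraries. Only the Pygm and Pygb pair kept its order throughout.

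**Figure D1:**
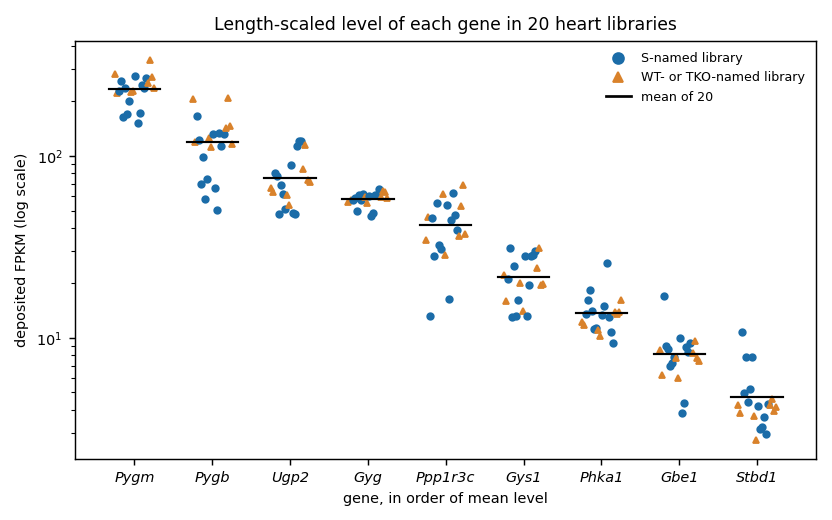
Deposited FPKM (log scale) of the 9 genes in 20 heart libraries, ordered by mean, with circles for S-named and triangles for WT- or TKO-named libraries and a bar at the mean. The points of neighbouring genes overlap, and Gyg is the most tightly grouped, with an SD of 5.08 around 58.1 FPKM.

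The other genes of the pathway place these levels. Of the 30 further glycogen genes listed, Slc2a4, the insulin-responsive glucose transporter, had the highest FPKM at 111 ± 15.2 (SD, n = 20), close to Ppp1ca, a catalytic subunit of protein phosphatase 1, at 107 ± 19.9. Pgm1, which interconverts glucose 1-phosphate and glucose 6-phosphate, was at 56.1 ± 10.4 FPKM and Hk2, the muscle hexokinase, at 34.6 ± 9.23 FPKM. Gaa, the lysosomal glucosidase, was at 26.6 ± 4.33 FPKM, and Ppp1r3a, the other striated muscle targeting subunit, at 24.8 ± 7.04 FPKM, below Ppp1r3c.

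Isoforms typical of liver were scarce. Pygl, the liver phosphorylase, took 0.0920% to 1.87% of the summed FPKM of the 3 phosphorylases, the upper value in S7. Pygb took 22.7% in S3, its lowest library, and 42.0% in WT1, its highest. In the S-named libraries the Pygb share had a median of 31.2%, and in the WT/TKO-named libraries 35.4%.

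Variation between libraries was then described as TMM-scaled CPM, which compares 1 gene across libraries. Ppp1r3c varied most, with its highest library 5.70 times its lowest, and Pygb followed at 4.68 times. Gyg varied least, at 1.51 times. The remaining 6 genes lay between 2.42 times (Pygm) and 3.63 times (Gbe1). Bulk RNA cannot separate fewer cells of a type from less RNA per cell.

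Ugp2, at the entry to synthesis, read 228 and 199 CPM in WT1 and WT2 and 222, 239.8 and 134 CPM in S7, S8 and S9, the male WT libraries. The male KO libraries read 217, 181, 144, 195 and 177 CPM in S10, S11, S12, TKO5 and TKO6. The male groups overlapped over most of their range, and the KO minus WT difference was -0.18 ± 0.17 (log2, SE). In the female WT libraries S1, S2 and S3 it read 266, 163 and 142 CPM, and in the 7 female KO libraries its lowest, median and highest values were 215, 337 and 375 CPM. The 3 S-named KO libraries were all above the 3 WT libraries, whereas TKO1, TKO3 and TKO4 did not exceed S1. The female-label difference was 0.92 ± 0.24, the largest increase among the 9 genes.

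Gyg, the self-glucosylating primer, was steady. Male WT libraries read 147, 138, 121, 139.5 and 105 CPM (WT1, WT2, S7, S8, S9), and male KO libraries read 147, 128, 132, 147 and 139 CPM (S10, S11, S12, TKO5, TKO6). Female WT libraries read 138, 120.1 and 110.0 CPM, and the female KO libraries ran from 135 through a median of 144 to 159 CPM. S9 and S3 were the lowest of their groups, and the ranges overlapped in both sexes. Fold changes were small, 0.08 ± 0.11 in the male and 0.25 ± 0.13 in the female labels (log2, SE).

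Gys1, the chain-lengthening enzyme, read 119, 78.7, 90.7, 152 and 56.6 CPM in the male WT libraries and 121, 60.0, 70.3, 101 and 72.5 CPM in the male KO libraries, in the library order given for Gyg. In S1, S2 and S3 it read 132, 69.7 and 90.7 CPM, against a lowest, median and highest value of 90.9, 130.5 and 159 CPM in the female KO libraries. S8 was the highest male library and S9 the lowest, both labelled WT. The differences were -0.24 ± 0.28 in the male and 0.50 ± 0.24 in the female labels, and the male value was 0.0021 without S8. Exons of Gys1 share 310 bases with Ruvbl2 on the opposite strand, and without strand in the counting, reads there cannot be assigned to either gene.

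Gbe1, which inserts the branch points, read 51.5, 34.1, 81.9, 48.7 and 41.9 CPM in male WT and 38.4, 37.0, 38.3, 43.5 and 34.6 CPM in male KO libraries. S7 alone was far above the rest. Female WT libraries read 52.1, 22.7 and 22.6 CPM and female KO libraries 39.0, 45.4 and 54.2 CPM (lowest, median, highest), so S2 and S3 were below every KO library and S1 lay near their top. The differences were -0.43 ± 0.20 and 0.53 ± 0.27 in the male and female labels, and the male value was -0.21 without S7.

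**Figure D2:**
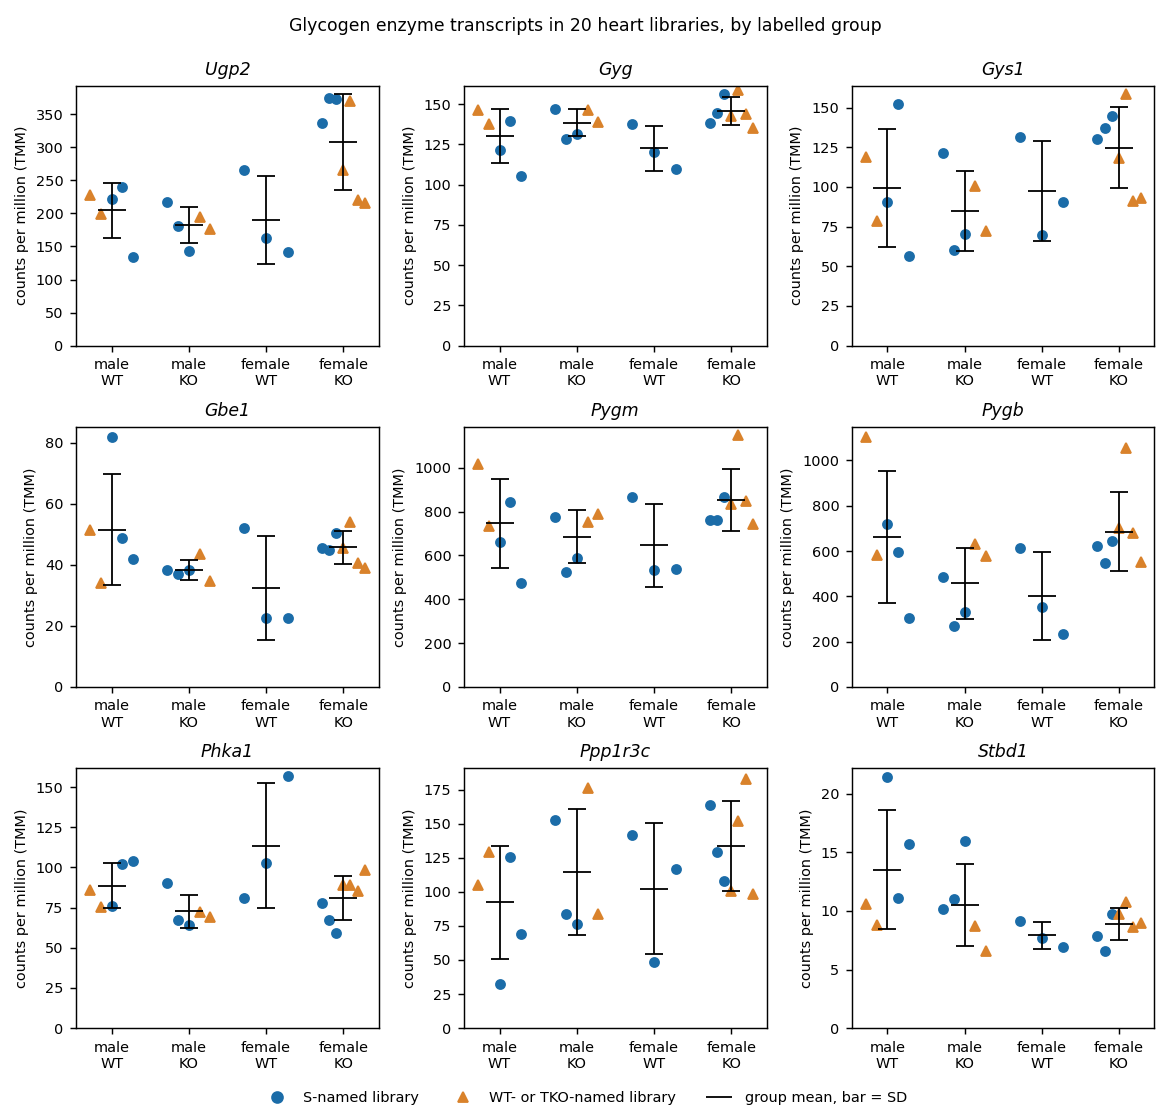
TMM-scaled CPM of each gene in each library by labelled group, with circles for S-named and triangles for WT- or TKO-named libraries, and the group mean with SD in black. S1 sits above S2 and S3 for Ugp2, Gys1, Gbe1, Pygm and Pygb, and S7 stands alone at 81.9 CPM for Gbe1 and 21.4 CPM for Stbd1.

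Turning to breakdown, Pygm releases glucose 1-phosphate from glycogen chains in muscle. It read 1016, 735, 662, 846 and 475 CPM in male WT and 776, 522, 589.5, 752 and 789.9 CPM in male KO libraries. In S1, S2 and S3 it read 866, 535 and 536 CPM, and the female KO libraries ran from 743 through 834 to 1151 CPM. S1 again sat within the KO range while S2 and S3 lay below it, and the highest KO value came from TKO2. Differences were -0.13 ± 0.18 in the male and 0.30 ± 0.21 in the female labels.

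Pygb, the isoform named for brain, read 1103, 584, 719, 596 and 304 CPM in male WT and 486, 267, 329, 630.5 and 578 CPM in male KO libraries. It read 615, 352 and 236 CPM in S1, S2 and S3, and 547, 645 and 1055 CPM as lowest, median and highest of the female KO libraries. WT1 and TKO2 were the only libraries above 1000 CPM. The difference was -0.56 ± 0.26 in the male labels, the largest decrease among the 9 genes there, and 0.59 ± 0.30 in the female labels.

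Phka1 encodes a regulatory subunit through which phosphorylase kinase is held inactive until phosphorylated. It read 86.2, 75.2, 75.8, 102 and 104 CPM in male WT and 90.5, 67.0, 64.5, 72.5 and 69.2 CPM in male KO libraries. Female WT libraries read 81.0, 103 and 157 CPM, and female KO libraries 59.4, 85.1 and 98.3 CPM (lowest, median, highest). S3 was the highest library of all, and S2 and S3 exceeded every female KO library. Phka1 was the only member lower in the female-labelled KO, by -0.73 ± 0.20, and it was -0.30 ± 0.14 in the male labels.

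Ppp1r3c brings protein phosphatase 1 to the glycogen particle. It read 105, 129, 32.1, 126 and 69.1 CPM in male WT and 153, 83.6, 76.3, 176 and 83.6 CPM in male KO libraries. The 3 female WT libraries read 141, 48.5 and 117 CPM, and the KO libraries 98.5, 129 and 183 CPM. Values spread widely inside each group, S7 and S2 being the lowest. Differences were 0.32 ± 0.35 in the male and 0.38 ± 0.33 in the female labels, each about the size of its SE.

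Stbd1, which binds glycogen and has been placed on the route of glycogen to lysosomes, read 10.6, 8.78, 21.4, 11.1 and 15.7 CPM in male WT and 10.1, 11.1, 15.9, 8.69 and 6.60 CPM in male KO libraries. In female WT libraries it read 9.14, 7.69 and 6.91 CPM, and in female KO libraries 6.60, 8.99 and 10.8 CPM. S7, S9 and S12, the highest for Stbd1, were among the 4 libraries with over 1000 CPM of atrial markers (7174, 6026 and 2137 CPM), while S11, with 7464 CPM, read 11.1 CPM. Stbd1 had a Pearson's r of 0.67 with the log2 atrial sum over the 20 libraries, which share groups and series. The part of atrial tissue in these values was not tested. Stbd1 differed by -0.38 ± 0.20 in the male labels (-0.22 without S7) and 0.02 ± 0.19 in the female labels.

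S7 joined several of these extremes. It held 387.7 CPM of 5 adipocyte markers where the other libraries held 0.21 to 14.6 CPM, together with the highest Gbe1 and Stbd1 and the lowest Ppp1r3c of all libraries. Pygl read 46.8 CPM in S7 and 2.04 to 5.91 CPM in the other libraries, and Gys2, the liver glycogen synthase, chosen after its values were seen, read 7.16 CPM in S7 and no more than 0.64 CPM elsewhere. The part of adipose tissue in these values was not tested.

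The 9 genes did not vary as one unit. Pearson's r of log2 CPM over the 20 libraries was between 0.66 and 0.91 for the 10 pairs among Ugp2, Gyg, Gys1, Pygm and Pygb, highest for Pygm with Pygb. By Pearson's r Gbe1 joined them less closely (0.39 to 0.67), as did Ppp1r3c (0.29 to 0.59). By Spearman's rho the 10 pairs lay between 0.57 and 0.89. Gbe1 then ran from 0.47 with Gyg to 0.77 with Pygb, mostly inside that range, and Ppp1r3c from 0.32 to 0.64. Phka1 ran the other way or was unrelated (r from -0.52 to -0.04), and Stbd1 lay between -0.26 and 0.01. High and low values of synthesis and breakdown enzymes thus lay in the same hearts, and the points share groups, series and tissue composition.

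Averaged over those 5 genes after standardising each, TKO2 was highest at 1.63, followed by S6 at 1.06 and WT1 at 0.90. The lowest were S9 at -1.81, S3 at -1.41, S11 at -1.19, S2 at -1.14 and S12 at -0.98. These 5 lowest libraries come from 3 of the labelled groups, are all S-named and include 3 of the 4 libraries rich in atrial markers. The r with the log2 ventricular marker sum was 0.74 for Pygm, 0.73 for Gyg, 0.55 for Ppp1r3c, 0.54 for Gys1, 0.52 for Pygb and 0.35 for Ugp2, against -0.03 for Gbe1, -0.05 for Phka1 and -0.45 for Stbd1. With the log2 atrial sum it was -0.56 for Pygm, -0.52 for Ppp1r3c, -0.48 for Pygb, -0.41 for Gyg, -0.40 for Gys1, -0.26 for Phka1, -0.24 for Ugp2 and 0.23 for Gbe1. The part of tissue composition in these levels was not tested.

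**Figure D3:**
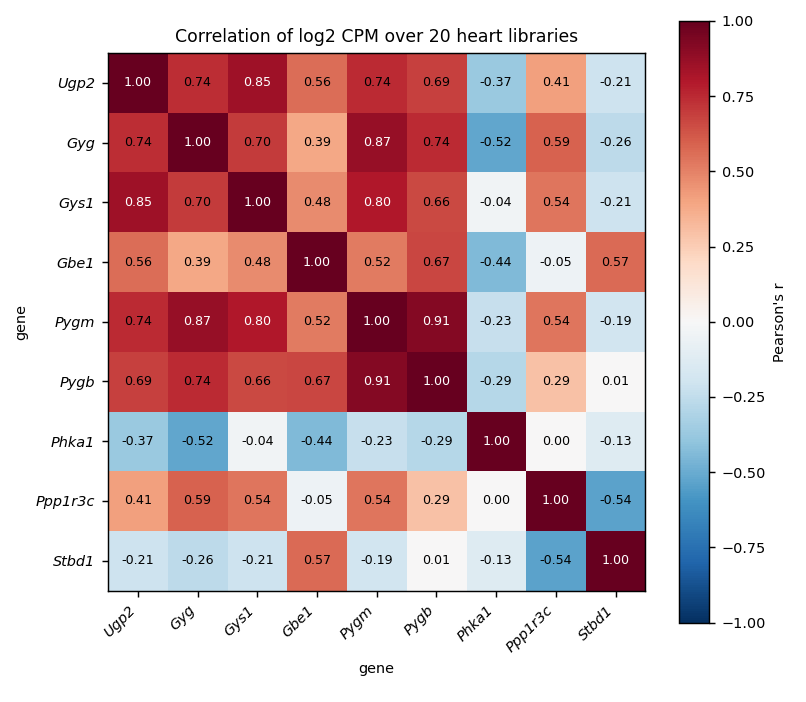
Pearson's r of log2 CPM between the 9 genes over 20 libraries, red for positive and blue for negative. Ugp2, Gyg, Gys1, Pygm and Pygb form a block of high values, and Phka1 and Stbd1 stay outside it.

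Likeness in pattern to the mean of the 9 members was ranked among 8303 genes with a mean of at least 10 CPM, after centring within library series. Of the 5 genes most alike, Sdha (r = 0.96), Pdk1 (0.95) and Gpam (0.95) are described. Sdha is a subunit of succinate dehydrogenase, Pdk1 restrains pyruvate dehydrogenase and Gpam starts glycerolipid synthesis. Pdk1 ran from 68.4 CPM in S3 to 193 CPM in TKO2. With values left uncentred, or with Spearman's rho, 2 of the 5 stayed among the nearest 5 genes, and without S7 only 1 did.

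The study compared hearts labelled KO with hearts labelled WT in each sex. In the male labels 7 of the 9 members were lower, with a median log2 fold change of -0.24, beside 52.9% lower and a median of -0.01 among all 14481 genes. Gyg and Ppp1r3c were the exceptions. Among the male WT libraries S7, S8 and S9 had sex-linked genes that went against the label, so that their genotype label is in doubt as well. Without S8 the male difference was -0.09 for Ugp2, -0.018 for Pygm and 0.62 for Ppp1r3c, and without S10 it was -0.44 for Gys1, -0.24 for Pygm and 0.09 for Ppp1r3c. No member passed an adjusted p below 0.05, and 0.0% of all genes did (0 of 14481 by edgeR, with 688 genes, 4.75%, and 0 members at an unadjusted p below 0.05, and 12 genes and 0 members by DESeq2). At an unadjusted p below 0.05 there were 3 members beside 772 of 14481 genes by DESeq2, and 1 member beside 617 genes by limma. At the study's own thresholds (unadjusted p below 0.05, with log2 fold changes of 0.58 or more in size), 0 members passed by edgeR beside 2.09% of genes. In CPM, 0 members separated all WT from all KO libraries, beside 0.587% of genes.

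In the female labels 8 of the 9 members were higher, with a median of 0.38, beside 47.6% higher and a median of -0.02 among all 14511 genes. The value sets S1, S2 and S3 against S4, S5 and S6, because the TKO-named libraries have no female WT partner in their series, and S4 to S6 are libraries whose sex-linked genes went against the label, so that their genotype label is in doubt as well. No member passed the adjusted p, beside 0.0551% of genes (8 by edgeR). Ugp2 and Phka1 passed the study's thresholds, beside 9.99% of genes, and the same 2 passed the adjusted p in DESeq2, beside 2.64% of genes. Since the members were chosen with such differences known, nothing is read from these counts.

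Separation of the libraries was partial. Over all 10 female-labelled libraries 0 members separated WT from KO, beside 4.96% of genes. Among the S-named libraries alone Ugp2 and Gyg were higher in all 3 KO libraries and Phka1 was lower in all 3, which makes 3 of 9 members beside 17.1% of genes. Without S4 to S9 only TKO-named libraries stand for female KO. Ugp2 was then at 0.49, Gys1 at 0.24 and Phka1 at -0.33 in place of 0.92, 0.50 and -0.73, while Pygb was at 0.89 and Pygm at 0.47. In that fit every female WT library is S-named and every female KO library TKO-named, so no series term could be fitted, genotype and series cannot be told apart, and these values are not adjusted for series as the others are.

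**Figure D4:**
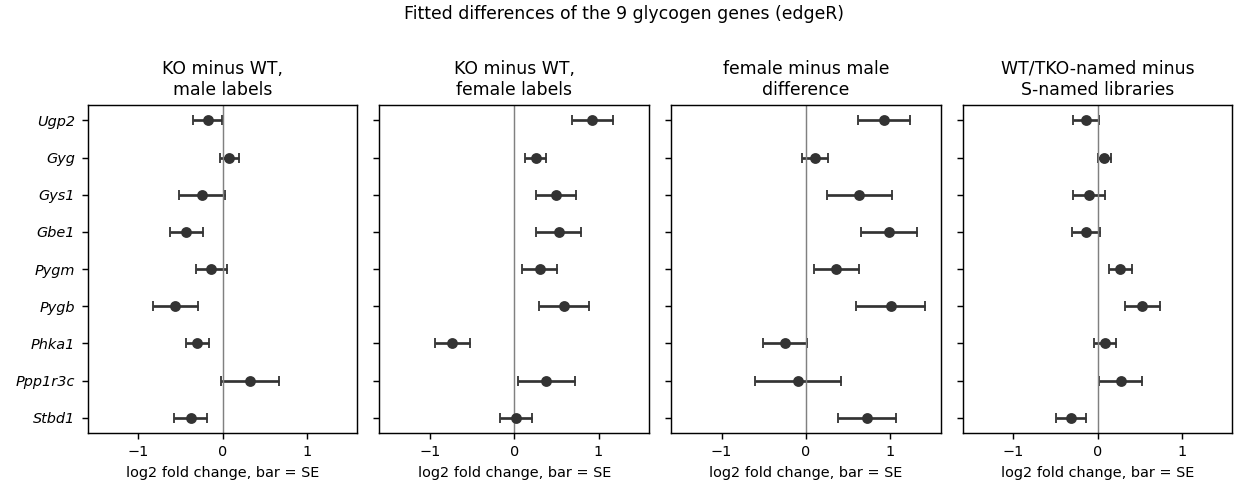
Log2 fold change with SE (edgeR) of the 9 genes in 4 comparisons, KO minus WT in the male and female labels, the difference between both, and WT/TKO-named minus S-named libraries. Most points lie left of 0 in the male panel and right of 0 in the female panel, with Phka1 at -0.73 as the exception in the latter.

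How many members passed in the female labels turned on tool, filter and 1 library. With all libraries it was 0 by edgeR, 2 by DESeq2 and 3 by edgeR without a filter on low counts. S1 resembled the KO libraries for most members, and without it the differences grew to 1.24 for Ugp2, 1.05 for Gbe1, 1.04 for Pygb, 0.77 for Gys1 and 0.57 for Pygm, and Phka1 moved to -0.93. Of the 9 members 6 then passed the adjusted p, beside 16.8% of genes (2409 of 14358), and nothing is read from that count either. Without S2, Ppp1r3c was at 0.04, Gys1 at 0.30, Gbe1 at 0.32 and Pygm at 0.18, and without S3, Pygb was at 0.32 and Phka1 at -0.43, and no member passed in either.

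**Figure D5:**
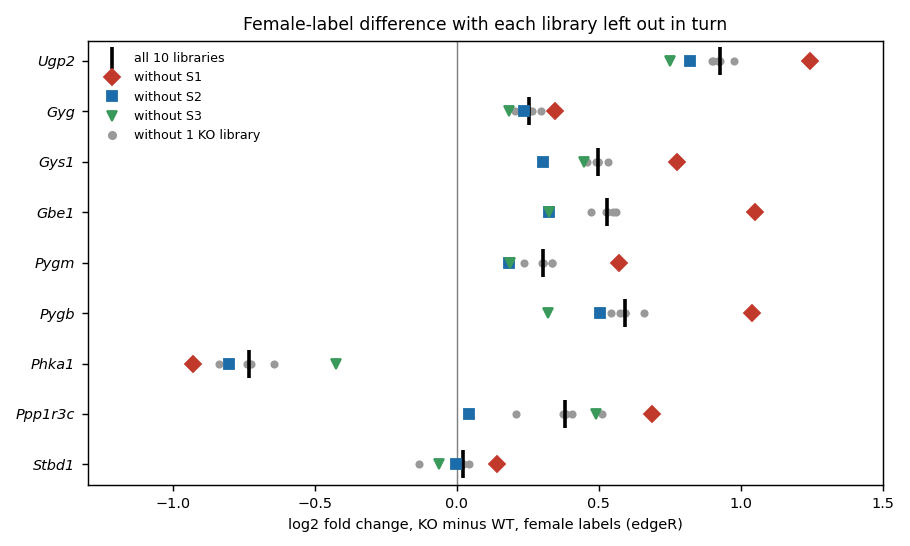
Log2 fold change between KO and WT in the female labels for each gene with all 10 libraries (black bar) and with each library left out in turn. The red diamonds, without S1, lie farthest from 0 for every gene except Stbd1, for which all values stay between -0.13 and 0.15.

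The difference between the labelled sexes, female minus male, was above 0 for 7 of 9 members, beside 50.3% of 15187 genes. Pygb (1.0 ± 0.41), Gbe1 (0.99 ± 0.33), Ugp2 (0.93 ± 0.31) and Stbd1 (0.73 ± 0.34) had the largest values, and Phka1 (-0.25 ± 0.26) and Ppp1r3c (-0.09 ± 0.51, but 0.01 in limma) were below 0. With a library left out Phka1 reached 0.05 (without S3), and Ppp1r3c ran from -0.43 to 0.21 and changed sign in 5 of 20 fits. Stbd1 ran from 0.47 (without S7) to 0.89 (without S5), and Gbe1 from 0.71 (without S7) to 1.51 (without S1). Without S4 to S9 Stbd1 was at 1.33 and Gbe1 at 0.57. In that fit only the male KO group holds both series, so the adjustment for series rests on the male KO libraries alone. Among all genes 0.0% passed the adjusted p (0 by edgeR with 2375 at an unadjusted p below 0.05, and 19 by DESeq2), and 0 members did, with 4 at an unadjusted p below 0.05, beside 15.6% of genes, and 0 by DESeq2. Without S1, Gbe1, Pygb and Ugp2 passed, beside 7.45% of genes, again as a description of selected genes. Because 6 of the libraries carry sex-linked genes of the other sex, this contrast compares labels, not sexes.

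The contrast between the library series is not known to have been used to choose the members, and it was tested. None of the 9 members passed an adjusted p below 0.05 (edgeR's quasi-likelihood test), although 14.7% of all genes did, with 1 member at an unadjusted p below 0.05, beside 31.1% of genes, and 0 by DESeq2. Of the 2231 genes that passed, 992 were higher and 1239 lower in the WT/TKO-named libraries, and 512 and 1851 in limma on log2(FPKM + 1). Pygb came closest, 0.53 ± 0.20 higher in the WT/TKO-named libraries (adjusted p = 0.0834), followed by Pygm at 0.27 ± 0.14 (adjusted p = 0.175) and Stbd1 at -0.32 ± 0.18 (adjusted p = 0.225). Without a filter on low counts Pygb passed (adjusted p = 0.0236, edgeR), beside 2733 of 29339 genes. Without the 4 libraries rich in atrial markers Pygb, Pygm and Stbd1 were at 0.34, 0.095 and -0.0075. Without S4 to S9 Stbd1 was at -0.72, in a fit where only the male KO group holds both series. Of the 9 members 5 were above 0, beside 50.0% of genes, and 3 in limma, where Gyg and Phka1 turned to just below 0.

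Among the other glycogen genes 2 of 28 tested passed the series contrast by edgeR, beside the 14.7% of all genes that did. By DESeq2 3 of the 28 passed, beside 2927 of 15187 genes. Phkb, the beta subunit of phosphorylase kinase, was 0.53 ± 0.12 higher in the WT/TKO-named libraries (adjusted p = 0.00543, edgeR), with 34.5 to 55.9 CPM there and 22.2 to 37.2 CPM in the S-named libraries. Slc2a1, the basal glucose transporter, was -0.44 ± 0.13 (adjusted p = 0.0278, edgeR). Without S4 to S9 Phkb was at 0.52 and Slc2a1 at -0.38, and neither passed in this smaller set (adjusted p = 0.281 and 0.462, edgeR). There too only the male KO group holds both series. Without the 4 libraries rich in atrial markers they were at 0.37 and -0.34 (adjusted p = 0.0690 and 0.0820, edgeR). Slc2a1 also missed the threshold without WT1, WT2 or S11, at -0.39, -0.37 and -0.38. Prkag2, the regulatory subunit of AMP-activated kinase named in glycogen storage heart disease, was at -0.59 ± 0.30 (adjusted p = 0.195, edgeR), and at 0.18 without the 4 libraries rich in atrial markers.

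The further glycogen genes, whose list was also chosen with earlier results known, are given for the KO comparisons in the same way. Over all libraries none passed the adjusted p, except that without a filter on low counts Pygl passed in the male labels (-1.96) and Epm2a in the female labels (0.62). Of 27 tested in the male labels 19 were below 0, beside 52.9% of all genes, with a median of -0.23, and of 28 tested in the female labels 21 were above 0, beside 47.6% of all genes, with a median of 0.21. By edgeR the count was 0 in each, with 2 and 4 at an unadjusted p below 0.05, beside 4.75% and 17.9% of all genes, and 0 passed by DESeq2. Without S1, 8 of the 28 passed in the female labels, 6 higher and 2 lower, beside 16.8% of all genes. Pygl was at -1.97 ± 0.73 in the male labels, where S7 supplies the high value (-0.71 without it), and Ppp1r3b, a targeting subunit abundant in liver, at -0.63 ± 0.25. Epm2a, the glycogen phosphatase laforin, was at 0.62 ± 0.25 in the female labels.

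The subunits of phosphorylase kinase did not share a sign in the female labels. Beside Phka1 at -0.73, its liver counterpart Phka2 was at -0.52 ± 0.21 (adjusted p = 0.236, edgeR) and the catalytic subunit Phkg2 at -0.41 ± 0.22 (adjusted p = 0.351, edgeR). Phkb stood at 0.36 ± 0.17 (adjusted p = 0.284, edgeR) and Phkg1, the muscle catalytic subunit, at 0.35 ± 0.24 (adjusted p = 0.456, edgeR). In S2 and S3 Phka2 read 20.1 and 21.9 CPM against 12.1 CPM in S1, and Phkg2 read 11.6 and 12.4 CPM against 6.95 CPM. Without S1, Phka2 was at -0.75 and Phkg2 at -0.64, and both passed the adjusted p, in a fit where 16.8% of all genes passed. Without S4 to S9 Phkg1 was at 1.13 and passed the adjusted p, in a fit without a series term where 2.57% of all genes passed (366 of 14235). In S9, S11 and S12, the other libraries with low phosphorylases, Phka2 read 11.8, 15.4 and 16.1 CPM and Phkg2 8.05, 7.44 and 8.30 CPM, below their values in S2 and S3.

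For the difference between the labelled sexes 23 of the 28 further genes were above 0, beside 50.3% of all genes, with a median of 0.46. Besides Pygl at 2.45 ± 0.87, those at 0.58 or more were Prkag2 (0.95), Ppp1r3a (0.82), Phkg1 (0.81), Ppp1r3g (0.76), Ppp1ca (0.69), Epm2a (0.69), Gsk3a (0.65), Hk2 (0.62) and Slc2a1 (0.60). Phka2 (-0.64) and Phkg2 (-0.60) were the ones at -0.58 or less. Pygl was at 0.68 without S7, which held 46.8 CPM of it, and Ppp1r3g, read at 0.0634 to 1.03 CPM over all libraries, was at -0.12 without S4 to S9 and -0.0521 without S7. By edgeR 0 of 28 passed the adjusted p, with 11 at an unadjusted p below 0.05, beside 15.6% of all genes, and 0 by DESeq2. Without S1, 5 passed, beside 7.45% of all genes, among them Gsk3a (1.08), Ppp1ca (0.95), Phka2 (-0.86) and Phkg2 (-0.83), and Pygl passed without a filter on low counts (2.44) with S7 included.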

How the data were processed

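Heart RNA was sequenced in 20 libraries. The authors deposited 1 table with whole-number counts of reads per gene and library, not normalized, and FPKM values, each computed from a count, a fixed gene length and the total of its library. The submitters' processing notes name HISAT2, HTSeq 0.6.1p2, DESeq2 1.26.0 and GRCm38; strandedness is not given in the sources used here. All columns were matched to a sample by name (0 left over), and groups came from the labels. Of 44 pairs within groups 0 were identical. Gene coordinates and exon overlaps came from GENCODE mouse release 21, promoter sequences from RefSeq (GRCm38.p6), where all 9 genes matched.

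From the counts, edgeR 4.0.16 (TMM, quasi-likelihood test, Benjamini-Hochberg adjustment over all genes) tested KO against WT separately in the male and female labels, the 2 differences against each other, and the 2 library series. The series was a term in each fit. A gene was kept when 3 or more libraries had 10 or more counts. DESeq2 1.42.0 and limma 3.58.1 on log2(FPKM + 1) were alternatives, beside other scalings, filters and subsets of libraries. CPM were TMM-scaled, and correlations used log2 CPM with a prior count of 2. The tests were tried on simulated counts. P-values set a difference against the spread between libraries, and the labels do not name the mouse of each library.

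The members and the lists of other glycogen genes and cell type markers were chosen with earlier results of these data known. Genes named are the 9 members, the 5 nearest in pattern, and, of 30 other glycogen genes, those with an adjusted p below 0.05, a log2 fold change of 0.58 or more in size or the highest level in their role. Some genes that met this rule are not reported here. Protein sequences were not used here. R 4.3.3, Python 3.11.15 and matplotlib 3.10.9 were used.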

Additional observations from a re-analysis of the deposited data

Results flagged for a closer look

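In groups of 4 to 10 libraries, 9 values of 28 genes lay far from the rest of their group, over 84 groups examined. The criterion has a nominal rate of about 1 in 20 groups. The genes were chosen with results of these data known, and Gys2 after its values were seen, so the count is not read against that rate. Genes of 1 library are not independent. TKO2 supplied 6 of them, all high among the female KO libraries. Pygm read 1151 CPM there (others 743 to 868), Pygb 1055 CPM (547 to 699.9), Phkb 55.2 CPM (32.6 to 40.3), Epm2a 30.1 CPM (19.1 to 22.1) and Gaa 167 CPM (112 to 131). The sixth was Pygl at 5.37 CPM (2.75 to 3.44).

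Of the male WT libraries, S7 read 46.8 CPM for Pygl (others 3.46 to 5.91) and 7.16 CPM for Gys2 (0 to 0.37), beside 387.7 CPM of adipocyte markers. Slc2a1 read 33.4 CPM in S11 among the male KO libraries (19.6 to 23.4), a library with 7464 CPM of atrial markers.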

How the results depend on the processing

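No paired analysis was possible because the numbers in the library names mark no shared litter or day that the labels state. The numbers run on from group to group in the S series, while WT1 and WT2 repeat the numbers of TKO1 and TKO2. The groups differ in labelled sex or genotype, so equal numbers in 2 groups are separate mice by label only. The labels do not name the mouse of each library. The fit of all 20 libraries was run for the male and female labels, the WT/TKO-named libraries alone for the male labels, the S-named libraries alone and the fit without the series covariate for all but the series, and the fit without the atrial libraries for all but the female labels. Genes past the adjusted p in the male labels numbered 0 by edgeR, 12 with DESeq2, 59 without a filter on low counts, 5 in S-named and 2 in WT/TKO-named libraries alone, and 0 to 1 with each library left out. In the female labels they numbered 8 by edgeR, 383 with DESeq2, 0 with at least 10 counts in every library, 1110 without a filter, 2 without the series covariate, 2 in 1 fit of all 20 libraries, 366 without S4 to S9, and 1 to 2409 with each library left out, the last without S1. For the difference between labelled sexes the count was 0, 19 with DESeq2, 129 without a filter and 0 to 1127 (without S1) with each library left out. For the series it was 2231, and 52 without S4 to S9. An alternative chosen after seeing the data, without the 4 libraries with over 1000 CPM of atrial markers, gave 4 genes in the male labels. The causes were not tested.

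Members past the adjusted p in the female labels numbered 0, 2 with DESeq2, 3 without a filter and 0 to 6 with each library left out (6 without S1). In the difference between labelled sexes they numbered 0 to 3 (3 without S1), and in the series 1 without a filter (Pygb). In the male labels 6 to 8 members were below 0 in every alternative run, and in the female labels 7 to 8 were above 0.

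In the series contrast no member passed with the filter on low counts. There 5 members were above 0, and 3 in limma on log2(FPKM + 1), 3 on log2(FPKM + 0.1) and 3 without the atrial libraries. Signs turned there for Gyg (-0.0225, -0.0228 and -0.0168 in these), Phka1 (-0.00967 and -0.00937 in the limma fits, -0.0818 without S4 to S9) and Ppp1r3c (-0.0793 without the atrial libraries). Without S4 to S9, Ugp2 was at 0.0216, Gys1 at 0.0295 and Gbe1 at 0.0223. In the fits of all groups without S4 to S9, the series term rests on the male KO libraries alone. Gys1 ran from -0.17 to 0.00727 with each library left out. Prkag2 was at 0.18 without the atrial libraries. For the difference between labelled sexes Ppp1r3g was at -0.12 without S4 to S9 and ran from -0.0521 to 1.47 with each library left out. Of the 5 genes nearest in pattern 2 remained with values not centred, 2 with Spearman's rho and 1 without S7. The lowest count of a member was 82, and the part of depth in these results was not tested.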
